A study of Homo sapiens with 22 samples.

Results

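The RNA levels of 10 genes that regulate apoptosis were followed on CodeLink human whole genome arrays, each array reading 1 cRNA preparation. They are BNIP3L, BID and BCL2L1 of the BCL2 family, the inhibitor of apoptosis BIRC2 and its antagonist DIABLO, the caspase pathway regulators CFLAR, PEA15 and DFFA, and the survival genes API5 and IER3. The genes were listed by name and read from all their probes with a single gene symbol in the platform annotation, which gave 13 of 14257 probes. All 13 probes were measured in Mia-PaCa-2, a pancreatic carcinoma line, and 4 of them, for 3 genes, in SK-MEL-28, a melanoma line. Mia-PaCa-2 cells given 1 µM Amblyomin-X for 4 h (6 arrays) were compared with untreated Mia-PaCa-2 cells (6 arrays), and SK-MEL-28 cells given the same dose for the same time (5 arrays) with untreated SK-MEL-28 cells (5 arrays). Amblyomin-X is a recombinant Kunitz-type protease inhibitor from a tick, and the study title names tumour cell death, the ubiquitin-proteasome system and cell cycle genes beside it. All cells of both lines grew in the same serum-containing medium, and the labels name no vehicle or waiting time for the untreated cells. The sources used here do not say if the arrays of a group stand for separate cultures, so the spread behind the p-values is that of these preparations and may be technical.

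In the mitochondrial route to apoptosis, proteins of the BCL2 family decide whether the outer mitochondrial membrane is permeabilised. Released mitochondrial proteins then either help to activate caspases or, like the DIABLO product SMAC, remove the inhibitor of apoptosis proteins that hold caspases and death receptor complexes in check. Death receptors reach caspases directly through adaptor proteins with death effector domains, a step that CFLAR and PEA15 restrain, and DFFA holds the DNA-cutting nuclease of apoptosis inactive until caspases cleave it. Much of this control works on proteins by cleavage, binding and degradation, which RNA levels do not show.

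Values are the authors' normalized intensities on the log2 scale, differences are treated minus untreated cells, and p-values come from limma. Unadjusted p-values are printed to rank the probes, and a probe counts as called only at an adjusted p under 0.05 over all probes of the line. No detection flags accompany the intensities used here, and 4 of the 13 probes in Mia-PaCa-2 lay in the dimmest 25% of all probes there (BID, CFLAR and the second probes of BNIP3L and BCL2L1). Before normalization the median intensity of an array lay between 68.1 and 156 in Mia-PaCa-2, and between 55.4 and 165 in SK-MEL-28. The profiles of 4 arrays went against their labels by resembling both lines, namely untreated arrays 4 and 5 in Mia-PaCa-2 and treated arrays 3 and 5 in SK-MEL-28. In a regression of every array on the average profile of either line over 5195 probes, the other line's profile had weights of 0.513 on the Mia-PaCa-2 pair and 0.588 to 0.595 on the SK-MEL-28 pair, and of -0.0306 to 0.0480 on all other arrays. The average profiles were built without these 4 arrays and without the array being fitted. The differences of the 10 genes and of the list genes named are therefore given with and without these arrays, which were singled out after their values had been seen. Of 7 epithelial markers 4 were measured in Mia-PaCa-2, with differences of -0.93 for MUC1, -0.52 for KRT8, -0.41 for KRT19 and 0.38 for KRT18, and of -0.79, -0.78, -0.91 and 0.32 without untreated arrays 4 and 5. None was called, and MUC1 with all arrays, and MUC1 and KRT19 without that pair, had an unadjusted p under 0.05. The part of these markers in the results below was not tested. KRT18 stood at 13.64 ± 0.34 in treated and 13.26 ± 0.33 in untreated cells (SD, n = 4 each, since 2 arrays per group had no value) and MUC1 at 6.20 ± 0.33 in treated and 7.13 ± 0.45 in untreated cells (SD, n = 6 each). Of 9 melanocyte genes 0 had a single-symbol probe among the probes of either line, so the melanoma label could not be checked in this way.

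Of the 11604 probes that limma tested in Mia-PaCa-2, it called 0% at an adjusted p under 0.05 and 9.59% at an unadjusted p under 0.05. Of the 13 probes of the cell death regulators 0 were called, and 4 probes of 3 genes had an unadjusted p under 0.05, 2 for BNIP3L and 1 each for BCL2L1 and DIABLO. Without untreated arrays 4 and 5 there were 2 such probes, for BNIP3L and DFFA, beside 5.48% of all probes. The count of 4 was also 2 on leaving out untreated array 4 alone or treated array 4, 5 or 6 alone. Of all probes, 5.94%, 9.05%, 7.37% and 7.43% had such a p in these fits in turn. The 13 differences had a median of -0.10, with 5 above 0 and 8 below, and the median over all probes was 0.01. Without untreated arrays 4 and 5 these medians were -0.01 and 0.00. No probe of the 10 genes had treated and untreated values that did not overlap, a pattern found for 0.284% of all probes in the upward and 0.259% in the downward direction.

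**Figure D1:**
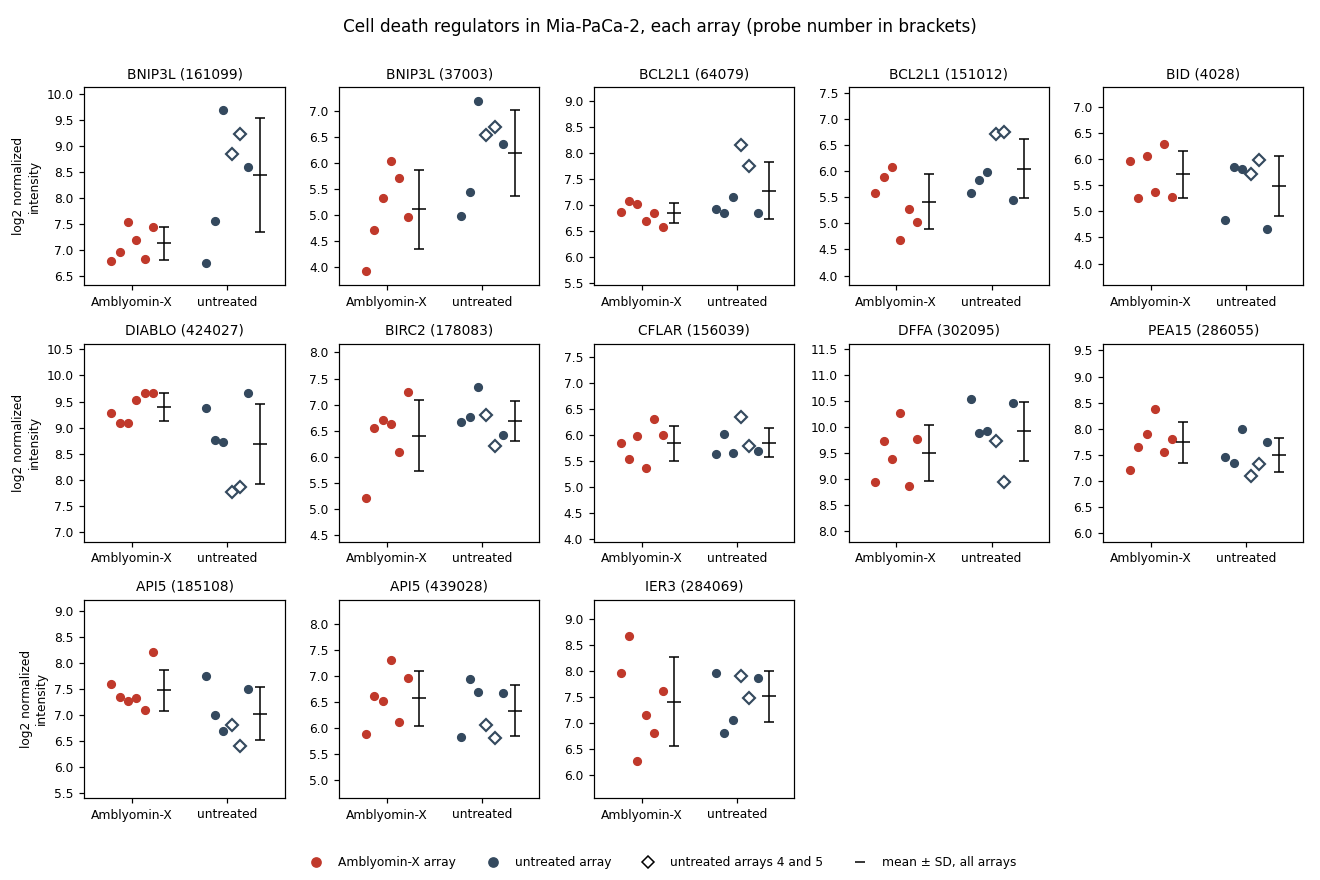
Log2 normalized intensity of each Mia-PaCa-2 array for the 13 probes, with Amblyomin-X arrays on the left and untreated arrays on the right of each panel in the order of their numbers, open diamonds for untreated arrays 4 and 5, and mean ± SD over 6 arrays beside each group. Every panel spans the same log2 range, and in every panel the groups overlap. The BNIP3L panels show treated arrays at the level of untreated arrays 1 and 2, and the BCL2L1 panels show untreated arrays 4 and 5 above the other arrays.

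BNIP3L had the largest difference of the 10 genes, with lower values in treated cells by both of its probes. BNIP3L, also called NIX, is a BCL2-related protein of the outer mitochondrial membrane that serves as a receptor for the removal of mitochondria by autophagy and is known to be induced by low oxygen. By its brighter probe, treated arrays 1 to 6 stood at 6.79, 6.97, 7.55, 7.20, 6.83 and 7.46, and untreated arrays 1 to 6 at 6.76, 7.56, 9.70, 8.86, 9.22 and 8.61. The treated arrays were close together, while the untreated arrays lay in 2 places, with arrays 1 and 2 at the edges of the treated range and arrays 3 to 6 above it. The group means were 7.13 ± 0.32 in treated and 8.45 ± 1.10 in untreated cells (SD, n = 6 each), a difference of -1.32 ± 0.40 (SE, limma, 95% interval -2.17 to -0.47), or a ratio of 0.401. With an unadjusted p of 0.00466 this probe ranked 70 of 11604, and its adjusted p was 0.501.

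The second BNIP3L probe was dim and gave a like picture. It read 3.92, 4.71, 5.32, 6.04, 5.70 and 4.95 on treated arrays 1 to 6, and 4.98, 5.43, 7.17, 6.52, 6.68 and 6.35 on untreated arrays 1 to 6. Untreated arrays 1 and 2 were again the lowest of their group, and the difference was -1.08 ± 0.39 (SE, limma, 95% interval -1.91 to -0.25, adjusted p = 0.501). By each probe the untreated mean was above all 6 treated arrays. Without untreated arrays 4 and 5 the differences were -1.02 ± 0.44 by the brighter and -0.88 ± 0.45 by the dimmer probe (SE, limma, adjusted p = 0.884 each). These fits take 1 variance for both groups. Without the pair the brighter probe's SD was 0.32 over 6 treated and 1.28 over 4 untreated arrays. Its error and p without the pair may therefore be too small, and a fit with separate variances was not run. Across 19 alternative fits the brighter probe's difference ran from -1.66 without untreated array 1 to -0.97 with the replicate block and without untreated arrays 4 and 5, and its unadjusted p was under 0.05 in 19 of 19. The dimmer probe had such a p in 17 of 18, and not in the main fit without untreated arrays 4 and 5 (limma, unadjusted p = 0.0770). All these fits share most of their arrays. Each array reads RNA of many cells together, so fewer cells with a transcript and less transcript per cell cannot be told apart here or below.

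BCL2L1, which encodes the survival protein BCL-XL and by alternative splicing a shorter form that favours death, had lower mean values in treated cells, by less without the pair of untreated arrays that resembled both lines. By the brighter probe, treated arrays read from 6.57 to 7.08 with a median of 6.86, and untreated arrays read 6.93, 6.84, 7.15, 8.15, 7.75 and 6.85 for arrays 1 to 6. Arrays 4 and 5 were the 2 highest of the 12, and the other untreated arrays lay at 6.84 to 7.15, close to the treated range. The difference of -0.43 ± 0.24 (SE, limma, adjusted p = 0.502) became -0.10 ± 0.16 without them (95% interval -0.43 to 0.24). The dim second probe had 5.42 ± 0.53 in treated and 6.05 ± 0.56 in untreated cells (SD, n = 6 each), with arrays 4 and 5 at 6.72 and 6.75. Its difference of -0.63 ± 0.29 (SE, limma, unadjusted p = 0.0442, adjusted p = 0.501) became -0.29 ± 0.26 without them. In SK-MEL-28, normalized apart, the brighter probe read 7.56 to 8.73 on treated and 7.81 to 8.91 on untreated arrays. Which splice form each probe reads was not tested.

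BID, the BH3-only protein that initiator caspases cleave to carry a death receptor signal to the mitochondrion, did not separate the groups. Its probe was dim, with values from 5.26 to 6.30 and a median of 5.68 on treated arrays, against 4.67 to 5.99 and a median of 5.77 on untreated arrays. The difference was 0.23 ± 0.28 (SE, limma, adjusted p = 0.721), with 3 treated arrays above the untreated mean and 3 below it. The 95% interval ran from -0.36 to 0.82, and without untreated arrays 4 and 5 the difference was 0.41 ± 0.30.

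Among the regulators downstream of the mitochondrion, DIABLO had higher mean values in treated cells and BIRC2 lower ones. DIABLO encodes SMAC, the mitochondrial protein that binds inhibitor of apoptosis proteins and frees caspases from them. It read 9.29, 9.10, 9.08, 9.53, 9.66 and 9.66 on treated arrays 1 to 6, against 9.38, 8.77, 8.72, 7.76, 7.86 and 9.65 on untreated arrays 1 to 6. Untreated arrays 4 and 5 were the lowest of all, and untreated arrays 1 and 6 lay inside the treated range. The difference of 0.70 ± 0.30 (SE, limma, 95% interval 0.06 to 1.34, unadjusted p = 0.0350, adjusted p = 0.501) became 0.26 ± 0.22 without arrays 4 and 5, and 0.51 and 0.53 when array 4 or array 5 alone was left out. BIRC2 encodes the ubiquitin ligase cIAP1, which keeps death receptor complexes in their survival state. Its values ran from 5.21 to 7.23 with a median of 6.59 on treated arrays, and from 6.20 to 7.33 with a median of 6.71 on untreated arrays. Treated array 1 was the lowest of all 12, and the BIRC2 difference of -0.29 ± 0.29 (SE, limma, adjusted p = 0.667) was -0.05 without that array, -0.45 without treated array 6 and -0.39 without untreated arrays 4 and 5.

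Of the caspase pathway regulators, DFFA had lower mean values in treated cells, and for DFFA, CFLAR and PEA15 alike the difference with all arrays was smaller than the SD of either group. DFFA encodes the inhibitor and folding partner of the caspase-activated DNase. It read 8.95, 9.73, 9.39, 10.27, 8.87 and 9.78 on treated arrays 1 to 6, against 10.53, 9.89, 9.93, 9.73, 8.95 and 10.46 on untreated arrays 1 to 6. Untreated array 5 stood among the lowest treated arrays, and treated array 4 stood above 4 of the untreated arrays. The DFFA difference was -0.42 ± 0.29 with all arrays (SE, limma, adjusted p = 0.551), and -0.71 ± 0.27 without untreated arrays 4 and 5 (SE, limma, 95% interval -1.30 to -0.11, unadjusted p = 0.0234, adjusted p = 0.884). It is the member whose difference grew most when those arrays were left out.

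CFLAR encodes c-FLIP, which competes with the initiator caspase of death receptors, and its dim probe read 5.84 ± 0.34 in treated and 5.86 ± 0.27 in untreated cells (SD, n = 6 each). The CFLAR difference was -0.02 ± 0.20 (SE, limma, adjusted p = 0.975) and 0.09 without untreated arrays 4 and 5. PEA15, a death effector domain protein that binds the adaptor FADD and also holds ERK kinases in the cytoplasm, read 7.74 ± 0.39 in treated and 7.49 ± 0.33 in untreated cells (SD, n = 6 each). Its difference was 0.25 ± 0.22 (SE, limma, adjusted p = 0.622), and 5 of 6 treated arrays lay above the untreated mean. Without untreated arrays 4 and 5 it was 0.11 with 4 of 6 above.

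The survival genes API5 and IER3 did not separate the groups either. API5 encodes a nuclear protein known to restrain apoptosis, and its probes did not follow each other. One probe read 7.47 ± 0.39 in treated and 7.02 ± 0.50 in untreated cells, with 6 of 6 treated arrays above the untreated mean and a difference of 0.45 ± 0.25 (SE, limma, adjusted p = 0.502). The other read 6.57 ± 0.52 in treated and 6.33 ± 0.49 in untreated cells, with a difference of 0.24 ± 0.27 (SE, limma, adjusted p = 0.702). On untreated array 1 the first API5 probe read the highest value of its group, 7.74, and the second nearly the lowest, 5.83. Without untreated arrays 4 and 5 the API5 differences were 0.24 and 0.04. IER3, an early response gene induced by stress and growth signals, varied more between arrays than between groups, at 7.96, 8.66, 6.26, 7.15, 6.81 and 7.61 on treated arrays 1 to 6 and from 6.81 to 7.96 with a median of 7.67 on untreated arrays. Its difference was -0.10 ± 0.35 (SE, limma, adjusted p = 0.920), and it was 0.13 without treated array 3 and -0.01 without untreated arrays 4 and 5.

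**Figure D2:**
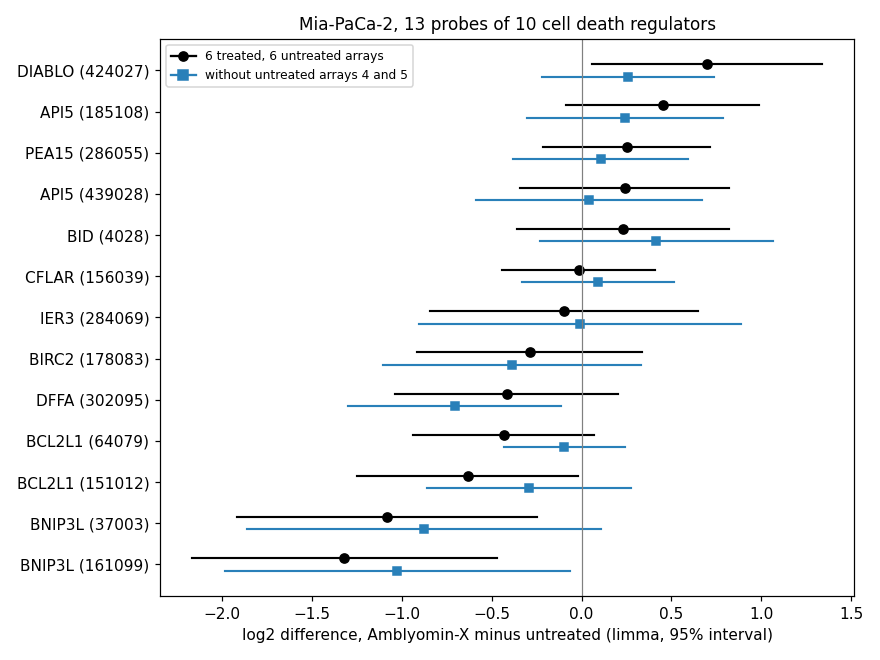
Log2 difference between Amblyomin-X and untreated Mia-PaCa-2 cells for the 13 probes, with 95% intervals from limma, for all 12 arrays (black circles) and without untreated arrays 4 and 5 (blue squares). The intervals of DIABLO, both BNIP3L probes and the second BCL2L1 probe lie off 0 with all arrays, and those of DFFA and the brighter BNIP3L probe do so without untreated arrays 4 and 5. The intervals are not adjusted for the number of probes.

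Other genes of the same pathways were read from 8 lists of 80 genes, of which 26 had a probe in Mia-PaCa-2. Of the 26 genes 0 were called, 14 had a positive and 12 a negative difference, and their median was 0.02. Leaving out untreated arrays 4 and 5, 11 of the 26 had a positive difference and the median was -0.03. With all arrays 1 of the 26, BIRC5, had an unadjusted p under 0.05, beside 9.59% of all probes. Without that pair 0 of the 26 had such a p, beside 5.48% of all probes. BIRC5 encodes survivin, an inhibitor of apoptosis protein that also acts in mitosis, and it read 10.04 ± 0.29 in treated and 9.29 ± 0.77 in untreated cells (SD, n = 6 each), a difference of 0.75 ± 0.31 (SE, limma, adjusted p = 0.501) that was 0.38 without untreated arrays 4 and 5. The 6 measured death-promoting members of the BCL2 family differed by -0.19 (BMF) to 0.19 (BOK), with BCL2L11, which encodes BIM, at 0.07. The outer values turned without untreated arrays 4 and 5, BMF to 0.17 and BOK to -0.17, and BCL2L11 had 0.04. Of the genes of the protecting side of the family other than BCL2L1, 0 of 5 were measured.

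HTRA2, a mitochondrial protease that is released in apoptosis, had a difference of -0.06 (-0.11 without untreated arrays 4 and 5) and the initiator caspase CASP9 one of -0.04 (-0.24 without them), each the 1 measured gene of its list. The 5 genes of death receptors and their adaptors had a median of 0.03, with the TRAIL receptor TNFRSF10B at 0.22, the adaptor TRADD at -0.11 and TNFRSF21 at 0.05. That median was -0.03 without untreated arrays 4 and 5, and TNFRSF10B had -0.03, TRADD 0.11 and TNFRSF21 -0.02. The death receptor FAS, named after its values were seen, had -0.06 with all arrays and -0.52 without that pair. PARP1, a DNA repair enzyme cleaved by caspases, had 0.49 ± 0.23 (SE, limma, adjusted p = 0.501), and 0.28 without untreated arrays 4 and 5. Of 11 other cell death regulators, AVEN had 0.40, DAP3 -0.31 (0.06 by a second probe) and PDCD2 0.18 (0.11 by a second probe). These values without untreated arrays 4 and 5 were 0.12 for AVEN, -0.27 for DAP3 and 0.18 for PDCD2. The early response genes listed beside IER3 had 4 measured members, among them FOSL1 at 1.01 ± 0.40 (0.49 without untreated arrays 4 and 5, and 0.54 by a second probe), ATF3 at 0.50 ± 0.22 (0.62 without those arrays) and KLF6 at 0.31 ± 0.20 (SE, limma, 0.26 without those arrays and 0.13 by a second probe). The remaining member, IER2, went the other way at -0.15 ± 0.23 (SE, limma, -0.09 without those arrays). None of these 4 was called, and FOSL1 and ATF3 had an unadjusted p under 0.05 (adjusted p = 0.501 each). ATF3, a transcription factor of the stress response, was dim at 5.55 ± 0.37 in treated and 5.05 ± 0.37 in untreated cells (SD, n = 6 each).

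**Figure D3:**
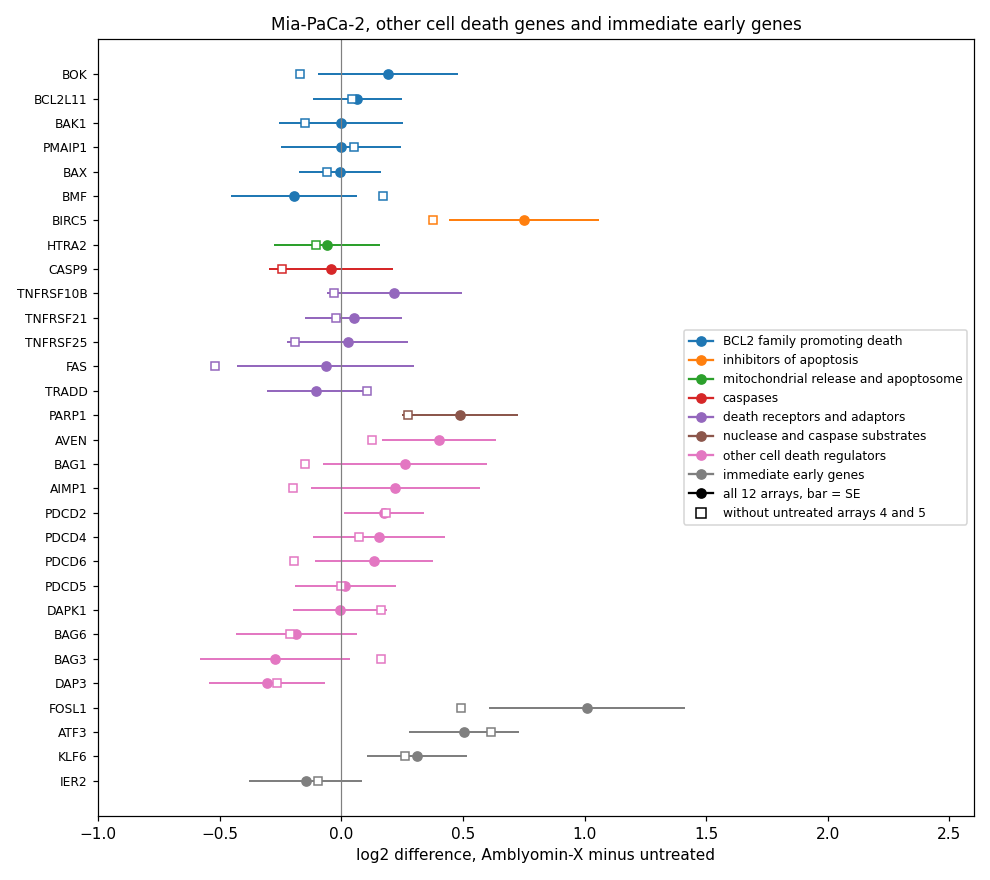
Log2 difference between Amblyomin-X and untreated Mia-PaCa-2 cells for 26 other cell death genes and 4 early response genes, 1 probe per gene, with circles and SE bars for all 12 arrays and open squares without untreated arrays 4 and 5. The 26 cell death genes range from -0.31 to 0.75 (BIRC5) with all arrays, and FOSL1 stands at 1.01. The squares of BIRC5 and FOSL1 lie closer to 0.

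The genes whose level followed each regulator most closely across the 12 Mia-PaCa-2 arrays were taken from 6275 others by Pearson's r, as a description with no test. The brighter BNIP3L probe was followed by asparagine synthetase ASNS (r = 0.917), the protease inhibitor gene SERPINA3 (0.896) and argininosuccinate synthase ASS1 (0.890), and r was 0.911, 0.862 and 0.853 over the 10 arrays without untreated arrays 4 and 5. These genes had treated minus untreated differences of -0.76, -1.06 and -0.58. BCL2L1 was followed by ELMO1 at 0.962, CYFIP2 at 0.958 and VEZT at 0.957, values that were 0.694, 0.747 and 0.812 over the 10 arrays. All closest genes were picked over the 12 arrays and not anew over the 10, so a lower r there does not measure the part of that pair. DIABLO was followed by RP9 (0.967, and 0.892 over the 10 arrays), RNF40 (0.964 and 0.844) and CDCA5 (0.957 and 0.814). DFFA was followed by MINPP1 at 0.953, EPS15 at 0.944 and WDR19 at 0.915, with 0.951, 0.948 and 0.900 over the 10 arrays. For BIRC2 the closest gene was ANAPC7 (0.924), for the brighter API5 probe MSH6 (0.954), for PEA15 JADE3 (0.929), for BID CKS2 (0.886) and for IER3 ZBTB34 (0.870). CFLAR had the weakest closest gene, LINC01522, at 0.753. All arrays of a line share 1 normalization and the same treatment contrast, which enter every one of these values.

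In SK-MEL-28, 3 of the 10 genes were measured by 4 probes, and limma called 0 of these 4 and 0% of the 7973 probes tested, with 5.59% at an unadjusted p under 0.05. BNIP3L read 7.27, 5.07, 9.10, 3.36 and 9.08 on treated arrays 1 to 5, against 6.78, 5.64, 6.21, 6.10 and 5.35 on untreated arrays 1 to 5. Treated arrays 3 and 5, those that resembled both lines, were the highest of all, and the lowest of all was treated array 4. The BNIP3L difference was 0.76 ± 0.98 (SE, limma, 95% interval -1.40 to 2.91, adjusted p = 0.916) with all arrays and -0.79 ± 0.74 without treated arrays 3 and 5. Leaving out treated array 4 alone gave 1.61, and leaving out array 3 or array 5 alone gave 0.18. PEA15 showed the same split, at 5.29, 5.84, 7.37, 5.07 and 7.51 on treated arrays 1 to 5 against 5.06 to 6.46 on untreated arrays. Its difference of 0.55 ± 0.50 (SE, limma, adjusted p = 0.864) became -0.27 ± 0.33 without treated arrays 3 and 5, where 2.61% of all probes had an unadjusted p under 0.05.

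BCL2L1 had lower mean values in treated SK-MEL-28 cells by both probes with all arrays, and neither probe was called. The brighter probe read 7.70, 8.66, 7.56, 8.73 and 8.07 on treated arrays 1 to 5, against 7.81, 8.36, 7.91, 8.59 and 8.91 on untreated arrays 1 to 5, a difference of -0.17 ± 0.30 (SE, limma, 95% interval -0.83 to 0.49, adjusted p = 0.939) that was 0.05 ± 0.34 without treated arrays 3 and 5. The second probe had 6.97 ± 0.57 in treated and 7.38 ± 0.36 in untreated cells (SD, n = 5 each), a difference of -0.41 ± 0.29 (SE, limma, adjusted p = 0.842) that was -0.20 ± 0.29 without those arrays. Same-numbered treated and untreated arrays deviated together in this line, and the SK-MEL-28 fits above did not use this pairing. With the replicate number as a block the second BCL2L1 probe kept its difference with a smaller error, -0.41 ± 0.15 (SE, limma, unadjusted p = 0.0274, adjusted p = 0.458), where 10.7% of all probes had an unadjusted p under 0.05. With the block and without treated arrays 3 and 5 the difference was -0.33 ± 0.16 (SE, limma, adjusted p = 0.873).

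**Figure D4:**
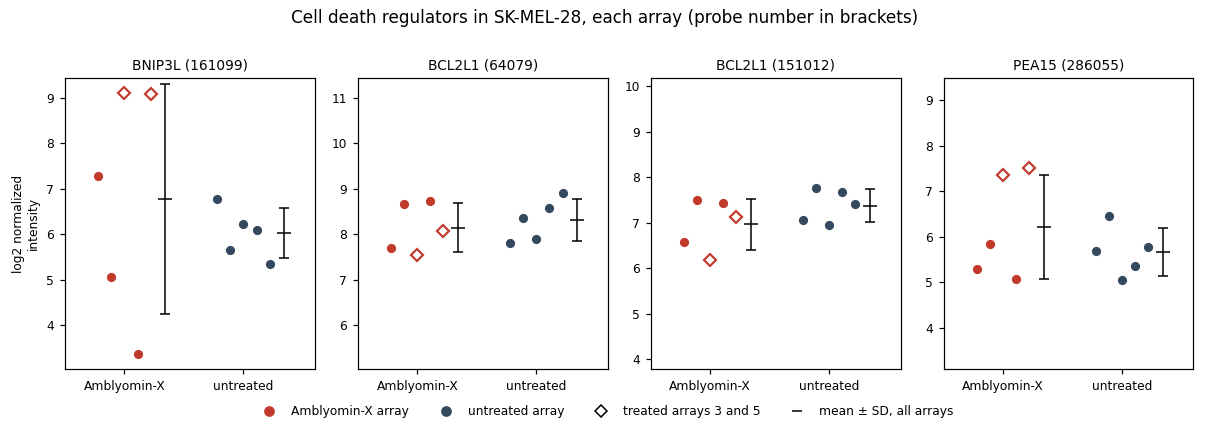
Log2 normalized intensity of each SK-MEL-28 array for the 4 probes measured in this line, with Amblyomin-X arrays on the left and untreated arrays on the right of each panel in the order of their numbers, open diamonds for treated arrays 3 and 5, and mean ± SD over 5 arrays. All panels span the same log2 range. The open diamonds lie above all other arrays for BNIP3L and PEA15 and within or at the low end of the other arrays for BCL2L1.

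Whether the effect of Amblyomin-X differed by line was tested for the 4 shared probes among 5321 probes, where 5.47% of all had an unadjusted p under 0.05 and 0% an adjusted one by limma. None of the 4 was called. For BNIP3L the effect in Mia-PaCa-2 minus that in SK-MEL-28 was -2.08 ± 1.05 (SE, limma, 95% interval -4.26 to 0.11, unadjusted p = 0.0612, adjusted p = 0.873), and -0.24 ± 0.88 without the 4 arrays that resembled both lines, where 3.03% of the probes had an unadjusted p under 0.05. For BCL2L1 it was -0.26 ± 0.38 and -0.22 ± 0.43 by the 2 probes, and for PEA15 -0.30 ± 0.53 (SE, limma, adjusted p from 0.920 to 0.931). Without the 4 arrays these were -0.14 and -0.09 for BCL2L1 and 0.37 for PEA15. Levels were not tested between the lines.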

How the data were processed

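Groups and replicate numbers came from the sample titles. Per the file headers and values, each deposited per-array file holds a linear intensity for every probe, and the deposited table of the series holds the authors' normalized intensities, by a method not given in the sources used here. In that table all arrays of a line share 1 maximum and keep the ranks of the per-array files. Probes were named through the platform annotation (8051 of 14257 with 1 gene symbol, 400 with several, 5806 unnamed here), and 1 probe shared by BCL2L1 and another gene was left out. Each line was fitted separately on log2 normalized intensities with limma 3.58.1 in R 4.3.3 (lmFit, eBayes, Benjamini-Hochberg over all probes with at least 3 values per group, threshold 0.05). The fit was tested on simulated data. A contrast over 22 arrays gave the difference between lines. Python 3.11.15, pandas 2.3.3, NumPy 2.4.6 and matplotlib 3.10.9 made the figures.

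The 10 genes and the lists were chosen with earlier results of these data known. Named were all 10 genes, up to 3 genes per list with the smallest p, FAS and IER2 besides, and the 3 genes most correlated with a member. BCL2L1, BNIP3L and API5 have 2 probes each, and where 1 probe stands for a gene it is the one with the highest mean. Same-numbered arrays correlated in their deviations from group means by 0.247 to 0.602 in all 5 SK-MEL-28 pairs, and by -0.187 to 0.437 in Mia-PaCa-2, with 3 of 6 pairs above 0.1. The best match of a treated array had its own number for 3 of 5 arrays in SK-MEL-28 and 2 of 6 in Mia-PaCa-2. The main fits of both lines and the contrast between lines used no block, and the pairing entered only as an alternative. Alternatives left out each array in turn, the arrays that resembled both lines or the dimmest 25% of probes, used the replicate block or array weights, or started from the per-array intensities above 0. The number of arrays limits the precision.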

Additional observations from a re-analysis of the deposited data

How the results depend on the processing

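The 17 differences of the 4 SK-MEL-28 and 13 Mia-PaCa-2 probes were refitted under 311 combinations of probe and alternative, and 0 of these gave an adjusted p under 0.05. The direction turned in 20 of them, for 7 of the 17 differences. Without untreated arrays 4 and 5 CFLAR had 0.0897 in Mia-PaCa-2, and with the replicate block besides it had 0.0889, IER3 0.204, PEA15 -0.00147 and the dimmer API5 probe -0.0331. With median-centred array intensities CFLAR had 0.0298, and with array weights CFLAR had 0.0433 and IER3 0.0703. Leaving out 1 array at a time, CFLAR ran from -0.110 to 0.0804 and IER3 from -0.349 to 0.131. In SK-MEL-28 without treated arrays 3 and 5 the brighter BCL2L1 probe had 0.0490, BNIP3L -0.785 and PEA15 -0.267, and with the replicate block besides these were 0.111, -0.942 and -0.435. The difference between the lines turned for PEA15 alone, to 0.37 without all 4 such arrays. The cause of these turns was not tested. Both BNIP3L probes, both BCL2L1 probes, DIABLO and DFFA kept their direction in Mia-PaCa-2 in every alternative run, BNIP3L at -1.66 to -0.97 and -1.32 to -0.84, BCL2L1 at -0.52 to -0.06 and -0.77 to -0.07, DIABLO at 0.15 to 0.89 and DFFA at -0.74 to -0.29. So did BID at 0.07 to 0.41, BIRC2 at -0.45 to -0.05 and the brighter API5 probe at 0.24 to 0.59. The alternatives share most of their arrays, and a kept direction does not set any of these genes apart.

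In Mia-PaCa-2 the 4 probes of the regulators with an unadjusted p under 0.05 were 2 without untreated arrays 4 and 5, 2 without the dimmest 25% of probes (which leaves out 4 of the 13 probes), 2 with array weights and 2 to 5 on leaving out 1 array at a time. Of all probes tested, the share was 5.48% without that pair, 9.47% without the dimmest probes and 8.07% with array weights. It ran from 5.54% to 16.3% on leaving out 1 array at a time. With the replicate block the count was again 4 in Mia-PaCa-2, beside 10.4% of all probes, but the second BCL2L1 probe left (unadjusted p = 0.0627 by limma) and the brighter API5 probe entered (0.0389). With the block and without untreated arrays 4 and 5 the count was 3, for both BNIP3L probes and DFFA, beside 6.34% of all probes. The block took the count from 0 to 1 in SK-MEL-28, beside 10.7% of all probes, and it changed no call at the adjusted threshold. Over all Mia-PaCa-2 probes array weights gave 1 call, no member, and every other alternative 0. Of all probes, 1113 had an unadjusted p under 0.05 in Mia-PaCa-2, and 636 without untreated arrays 4 and 5 (736 with the block), 689 without array 4, 643 without array 5 and 1887 without untreated array 1. In SK-MEL-28 there were 446, and 206 without treated arrays 3 and 5, 857 with the block, 285 without the dimmest probes, 720 without treated array 1, 296 without treated array 3 and 228 without treated array 5. No scaling moved the median over all probes by more than 0.1. Signal over background could not be judged for the dim probes, since no flags were used.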

Other observations

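The spread between arrays differed between the groups for several regulators in Mia-PaCa-2, given here as values. The brighter BNIP3L probe had an SD of 0.32 over treated and 1.10 over untreated arrays, and the untreated SD was 1.28 without untreated arrays 4 and 5. DIABLO had an SD of 0.27 over treated and 0.77 over untreated arrays (0.46 without arrays 4 and 5), and the brighter BCL2L1 probe 0.19 over treated and 0.55 over untreated arrays (0.14 without them). IER3 and BIRC2 had the larger spread in treated cells, with an SD of 0.85 over treated and 0.48 over untreated arrays for IER3, and 0.69 and 0.39 for BIRC2. The treated SD was also the larger, by less, for CFLAR (0.34 and 0.27), PEA15 (0.39 and 0.33) and the dimmer API5 probe (0.52 and 0.49). The probes of BNIP3L correlated by 0.857 with each other across the 12 arrays and those of BCL2L1 by 0.887, while those of API5 correlated by 0.235, and over the 10 arrays without untreated arrays 4 and 5 these values were 0.811, 0.854 and -0.120. No p is given for these correlations, since the probes of a gene share every array.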
